A study of Mus musculus with 8 samples.

Results

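Among 22237 genes measured in primary mouse glomerular cells, 1604 responded differently to the culture medium in podocytes and in parietal epithelial cells (PECs). The response of a gene was its log2 level in EGM-MV minus its log2 level in RPMI, taken within each culture. The quantity tested was the mean response of the 2 podocyte cultures minus that of the 2 PEC cultures, and a gene was called when the adjusted p of this difference lay below 0.05. All 8 arrays of the study entered this comparison, as 4 pairs of arrays. The 4 groups were PECs in RPMI, PECs in EGM-MV, podocytes in RPMI and podocytes in EGM-MV, with 2 arrays each.

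PECs came from female PEC-rtTA/LC1/R26R mice and podocytes from female Pod-rtTA/LC1/R26R mice. In both lines doxycycline switches on Cre recombinase through a transactivator, and Cre then turns on a permanent beta-galactosidase reporter. The transactivator is driven by a rabbit podocalyxin promoter fragment in the PEC line and by a podocyte promoter in the other line. PECs grew out of capsulated glomeruli and podocytes out of decapsulated glomeruli, and reporter-positive cells of either kind were then sorted by fluorescence and passaged. The mice were of a mixed background with 75% Sv129. Line and glomerular preparation went with cell type in every sample, so these cannot be told apart from it. The cultures are called PEC2, PEC3, Pod2 and Pod3 here, as in the deposited table.

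Podocytes cover the glomerular capillaries with interdigitating foot processes and carry the slit diaphragm of the filtration barrier. In the adult kidney they are post-mitotic. PECs line Bowman's capsule, lie in continuity with podocytes at the vascular pole and can divide. RPMI is a basal medium, whereas EGM-MV is made for microvascular endothelial cells and holds added growth factors. Fetal calf serum was added to both, and more of it to EGM-MV, so that a response holds the change in growth factors and the change in serum together. The question put to the arrays here was which genes this change of medium moved unequally in the 2 cell types.

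The 1604 called genes were 7.21% of all genes tested. The response was higher in podocytes for 807 of them, against a background of 3.63% called in this direction. It was lower in podocytes for the other 797, or 3.58% of the genes tested. The sizes were mostly moderate. Over the called genes the median size of the difference was 0.80 on the log2 scale, a 1.75-fold difference between responses, and over all genes it was 0.14. Of the called genes, 69.7% differed by less than 2-fold. The 486 that differed by 2-fold or more comprised 267 with a higher and 219 with a lower response in podocytes. Over 4-fold, 48 genes were higher and 22 lower. The largest differences were 5.38 and −4.51, and the smallest called was 0.47 in size. The called gene nearest to the threshold had a difference of −0.55 (adjusted p = 0.04998), and the nearest gene outside it had −0.70 (adjusted p = 0.05005).

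**Figure D1:**
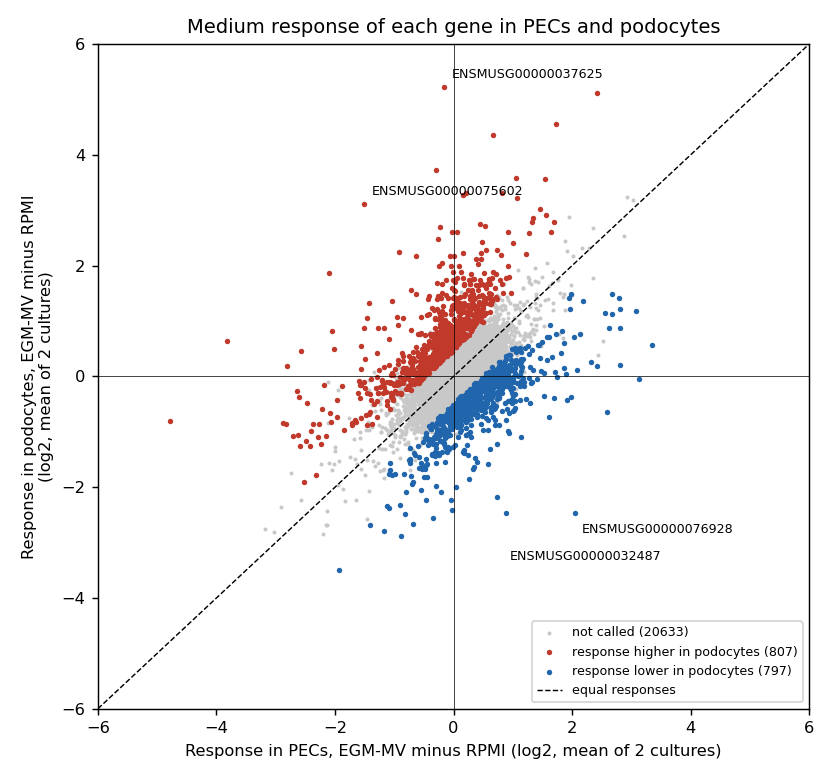
Mean response (EGM-MV minus RPMI, log2, mean of 2 cultures) of each of the 22237 genes in PECs (horizontal) and in podocytes (vertical). Red points are the 807 genes called with a higher response in podocytes, blue points the 797 called with a lower one, grey points the others, and the dashed line marks equal responses. The IDs mark the 4 genes described in full.

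The test was limma's moderated test on the 4 paired values, two-sided, with p-values adjusted by the Benjamini-Hochberg method over all 22237 genes. The standard error of the difference had a median of 0.125 over all genes, and the 95% confidence interval reached a median of 0.29 to either side. Standard errors here are moderated: the spread of a gene between cultures is drawn toward that of all genes. A gene whose cultures differ more than most thus gets a smaller error than its own values would give. A fit of the 4 group means without the pairing of arrays called 664 genes (2.99% of all), each of which was among the 1604. Without Pod2 the count fell to 337 (220 higher, 117 lower) and without Pod3 to 460 (223 higher, 237 lower). In both of these fits the spread between cultures was taken from PECs alone, so the fall in count does not measure a change in the differences. With every array centred on its median, 620 genes were called higher and 1069 lower. The balance of directions thus moved toward higher responses in podocytes without Pod2 and toward lower ones with centring. An exact permutation test of 2 against 2 cultures cannot give a p below 0.333, so no single gene can be called that way.

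Responses were more alike between cultures of the same cell type than across cell types. Across all genes, responses correlated at r = 0.78 between PEC2 and PEC3 and at r = 0.85 between Pod2 and Pod3. Between a PEC culture and a podocyte culture r lay between 0.42 and 0.51. These coefficients describe genes of the same arrays, and genes are not independent replicates. The response of a gene differed by 2-fold or more between PEC2 and PEC3 for 114 genes and between Pod2 and Pod3 for 26 genes. Across cell types the number of such genes lay between 566 and 670. Over the 1604 called genes, which were chosen for this, the median distance between the responses of 2 cultures was 0.15 on the log2 scale within PECs and 0.14 within podocytes. It lay between 0.77 and 0.83 across cell types. The paired responses of the cell types failed to overlap in 49.4% of all genes, so a lack of overlap with 2 cultures a side was common.

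The spread of responses was of similar size in the 4 cultures, with SDs over genes of 0.371 in PEC2, 0.370 in PEC3, 0.387 in Pod2 and 0.391 in Pod3. Genes higher by 2-fold or more in EGM-MV numbered 289 in PEC2, 269 in PEC3, 353 in Pod2 and 424 in Pod3. Those lower by 2-fold or more numbered 220, 219, 258 and 190 in the same order. The podocyte cultures thus held the larger counts of strongly increased genes. Array medians lay between 6.21 and 6.32, and the levels of the cultures of a group differed with an SD over genes of 0.26 in PECs in RPMI, 0.25 in PECs in EGM-MV, 0.18 in podocytes in RPMI and 0.12 in podocytes in EGM-MV.

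The files give genes by Ensembl ID without names, so the 4 genes described in full are given by ID. They were the 2 largest differences in each direction among called genes whose mean log2 level reached 6 in 1 group or more, with no overlap between the responses of the cell types. All levels below are log2 values in arbitrary intensity units. Levels near or below the array medians of 6.21 to 6.32 may be limited by background, as may fold changes that start or end there. This holds for ENSMUSG00000037625 in PECs, ENSMUSG00000075602 in podocytes in RPMI and ENSMUSG00000076928 in podocytes in EGM-MV. Fewer cells with a transcript and less of it per cell cannot be told apart in any of these values.

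ENSMUSG00000037625 had the largest difference of all genes. In RPMI its level was 6.03 in PEC2, 6.12 in PEC3, 6.77 in Pod2 and 6.89 in Pod3. In EGM-MV it was 5.86 in PEC2, 5.98 in PEC3, 11.84 in Pod2 and 12.27 in Pod3. Only the 2 podocyte arrays in EGM-MV were high, and they lay far above the other 6. The response was 5.22 in podocytes (37.2-fold, limma adjusted p = 1.09e-06) and −0.16 in PECs (adjusted p = 0.314). The difference was 5.38 ± 0.14 (moderated SE, n = 2 cultures per cell type, limma adjusted p = 2.16e-05). Its 95% confidence interval was 5.06 to 5.70. Podocytes and PECs were 0.76 apart in RPMI and 6.13 apart in EGM-MV, a 70.2-fold gap.

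ENSMUSG00000075602 moved in opposite directions. In RPMI its level was 11.85 in PEC2 and 13.02 in PEC3, against 6.50 in Pod2 and 6.24 in Pod3. In EGM-MV it was 10.56 in PEC2 and 11.30 in PEC3, against 9.12 in Pod2 and 9.86 in Pod3. PEC arrays stayed above podocyte arrays in both media, with a much smaller distance in EGM-MV. The response was −1.51 in PECs (2.84-fold lower, limma adjusted p = 0.00403) and 3.12 in podocytes (8.69-fold higher, adjusted p = 0.000135). The difference of responses was 4.63 ± 0.31 (moderated SE, n = 2 cultures per cell type, limma adjusted p = 0.000555). The gap from PECs down to podocytes narrowed from 66.9-fold in RPMI to 2.71-fold in EGM-MV.

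ENSMUSG00000076928 had the largest difference in the other direction. In RPMI its level was 7.48 in PEC2, 9.19 in PEC3, 8.48 in Pod2 and 8.48 in Pod3. In EGM-MV it was 10.27 in PEC2, 10.50 in PEC3, 6.21 in Pod2 and 5.82 in Pod3. The cell types overlapped in RPMI and stood well apart in EGM-MV. The response was 2.04 in PECs (4.12-fold higher, limma adjusted p = 0.00396) and −2.47 in podocytes (5.53-fold lower, adjusted p = 0.00132). The difference of responses was −4.51 ± 0.42 (SE, n = 2 cultures per cell type, limma adjusted p = 0.00164). The PEC cultures in RPMI differed with an SD of 1.21, the widest spread of this gene in any group.

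ENSMUSG00000032487 was highest in podocytes in RPMI. Its level there was 12.69 in Pod2 and 12.63 in Pod3, against 9.03 in PEC2 and 10.49 in PEC3. In EGM-MV it was 10.04 in Pod2 and 10.36 in Pod3, against 10.49 in PEC2 and 10.80 in PEC3. Podocytes were thus higher by 7.50-fold in RPMI and lower by 0.45 on the log2 scale in EGM-MV. The response was −2.46 in podocytes (5.51-fold lower, limma adjusted p = 0.000547). In PECs it was 0.89 (adjusted p = 0.0389), from 1.47 in PEC2 and 0.32 in PEC3. The difference of responses was −3.35 ± 0.34 (moderated SE, n = 2 cultures per cell type, limma adjusted p = 0.00212).

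**Figure D2:**
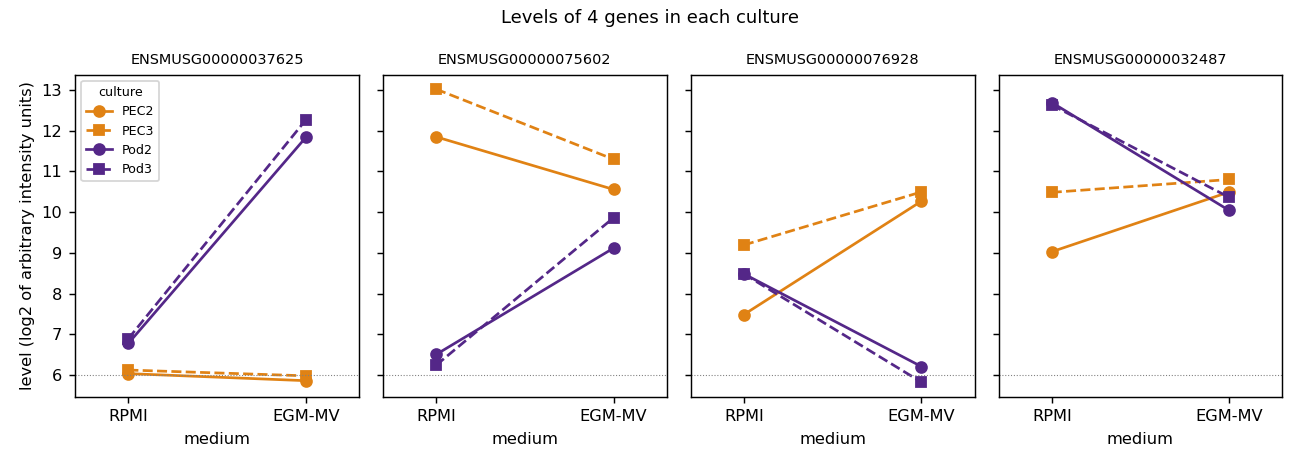
Level of the 4 genes (log2 of arbitrary intensity units) in RPMI and in EGM-MV, with a line joining the 2 arrays of each culture (orange for PEC2 and PEC3, purple for Pod2 and Pod3). The dotted line marks the level of 6 used in choosing the genes. Podocyte lines rise in the 2 left panels and fall in the 2 right panels, and the PEC lines run flat or the other way.

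In the fit without pairing these 4 genes had limma adjusted p-values of 0.000188, 0.0104, 0.0159 and 0.0264, in the order described. Each kept its direction under all 13 alternatives that were run. Several of these changed only the error estimate, the genes entered or the table read, so the difference could not change there. The 4 genes were also chosen for the size of this difference. With the methods' t-test and Benjamini-Hochberg adjustment, the 4 genes had adjusted p-values of 0.258, 0.308, 0.341 and 0.348, in the order described. Each thus missed the threshold on the adjusted p by which genes were called.

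The called genes were sorted by the direction of the response in each cell type and by which was the larger. This sorting used the same values as the call and is a description. The largest class held 475 genes that were higher in EGM-MV in PECs and lower in podocytes, with median responses of 0.44 and −0.38. A further 411 genes showed the reverse, with medians of −0.30 in PECs and 0.45 in podocytes. Together, 886 genes or 55.2% of those called had mean responses of opposite sign, against 35.3% of all genes. Choosing genes by the size of this difference bears on that share.

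The other 718 called genes moved the same way in both cell types by different amounts. Of these, 277 were higher in EGM-MV in both and more so in podocytes, with medians of 1.18 in podocytes and 0.26 in PECs. Another 177 were lower in both and more so in podocytes, at −1.05 against −0.22. The response was the larger in PECs for 145 genes that were higher in both (0.95 in PECs, 0.17 in podocytes) and for 119 that were lower in both (−1.20 in PECs, −0.27 in podocytes). Over all patterns the larger response belonged to podocytes for 919 genes, 57.3% of those called against 45.9% of all genes, and to PECs for 685.

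Both cultures of a cell type gave these medians closely. For the 277 genes increased more in podocytes, the median response was 1.12 in Pod2 and 1.24 in Pod3, against 0.29 in PEC2 and 0.25 in PEC3. Their median level moved from 7.36 to 8.68 in Pod2 and from 7.22 to 8.66 in Pod3 on going from RPMI to EGM-MV. For the 119 genes decreased more in PECs, the median response was −1.24 in PEC2 and −1.12 in PEC3, against −0.26 in Pod2 and −0.25 in Pod3. Among the 475 genes that were higher in PECs and lower in podocytes, the podocyte cultures were less alike, at −0.45 in Pod2 and −0.31 in Pod3. The PEC cultures were at 0.43 and 0.44.

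**Figure D3:**
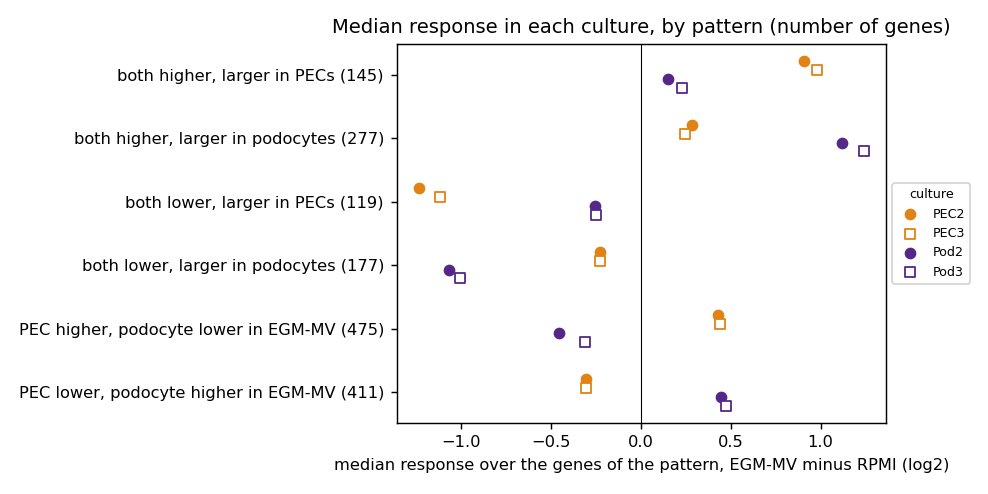
Median response (EGM-MV minus RPMI, log2) over the genes of each pattern in each of the 4 cultures. Orange marks are PEC2 and PEC3 and purple marks Pod2 and Pod3, and the number of genes of each pattern is in parentheses. The cultures of a cell type lie close together in all 6 patterns, and the call favours genes in which they do.

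Opposite directions were mostly made of small responses. In 163 of the 886 genes the response was called in both cell types, and in only 7 did it reach 2-fold in both. Over the whole 1604, the response itself was called in both cell types for 411 genes, in podocytes alone for 671, in PECs alone for 503 and in neither for 19. These within-type calls came from the same fit, where 2490 genes (11.2% of all) were called higher and 1899 (8.54%) lower in podocytes in EGM-MV, and 2600 (11.7%) higher and 1666 (7.49%) lower in PECs. A call in one cell type alone is not by itself a difference between them, since the difference was tested separately.

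A stricter class held called genes whose response in one cell type was also called and reached 2-fold. In the other cell type their response stayed below 0.5 in size on the log2 scale. No count over all genes was made for this class, so its numbers stand without a background. Podocytes had 244 such genes, of which 168 were higher and 76 lower in EGM-MV. PECs had 118, of which 63 were higher and 55 lower. Changes of over 4-fold were among them for 23 podocyte genes (18 higher, 5 lower) and 12 PEC genes (5 higher, 7 lower). Among all genes that changed by 2-fold or more, increases outnumbered decreases in each of the 4 cultures as well.

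The called genes were also sorted by the group in which their mean was highest. PECs in EGM-MV held the highest mean for 504 called genes (31.4%, against 30.3% of all genes) and podocytes in EGM-MV for 489 (30.5%, against 19.1%). Podocytes in RPMI did so for 358 (22.3%, against 18.5%) and PECs in RPMI for 253 (15.8%, against 32.1%). The lowest mean lay in podocytes in EGM-MV for 445 called genes (27.7%, against 32.7% of all genes) and in PECs in EGM-MV for 414 (25.8%, against 22.8%). It lay in podocytes in RPMI for 389 (24.3%, against 27.1%) and in PECs in RPMI for 356 (22.2%, against 17.4%).

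Some genes stood out in a single group. A group that stands far from all others gives a large difference of responses, the value tested. How many of these genes were called thus follows in part from the call. Both arrays of podocytes in EGM-MV lay 2-fold or more above the other 6 arrays for 79 called genes, of 90 such genes in the whole table. The same held in podocytes in RPMI for 40 of 47, in PECs in EGM-MV for 31 of 40 and in PECs in RPMI for 23 of 30. The reverse, both arrays 2-fold or more below the other 6, was found for 56 called genes of 70 in podocytes in RPMI, 16 of 22 in podocytes in EGM-MV, 4 of 13 in PECs in RPMI and 3 of 6 in PECs in EGM-MV. Genes that were low only in podocytes in RPMI were therefore more numerous than genes low only in podocytes in EGM-MV.

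A differing response is equally a gap between podocytes and PECs that depends on the medium. For 608 called genes the gap kept its direction and was wider in EGM-MV (9058 of all genes). For 391 it kept its direction and was narrower (7879 of all genes). For the other 605 it turned, which is 37.7% of the called genes against 23.8% of all genes. Genes were called by the change of this gap between media, which bears on that share. Among the 605, podocytes went from the lower to the higher level in 277, and PECs did in 328. Over all genes podocytes did so in 2839 and PECs in 2459. A gap of 2-fold or more was found in RPMI alone for 267 called genes, in EGM-MV alone for 353, and in both media in the same direction for 192. Over all genes these counts were 528, 739 and 876, so gaps found in EGM-MV alone outnumbered those in RPMI alone there too. The median gap in size was 0.56 in RPMI and 0.74 in EGM-MV over the called genes, and 0.18 and 0.19 over all genes.

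**Figure D4:**
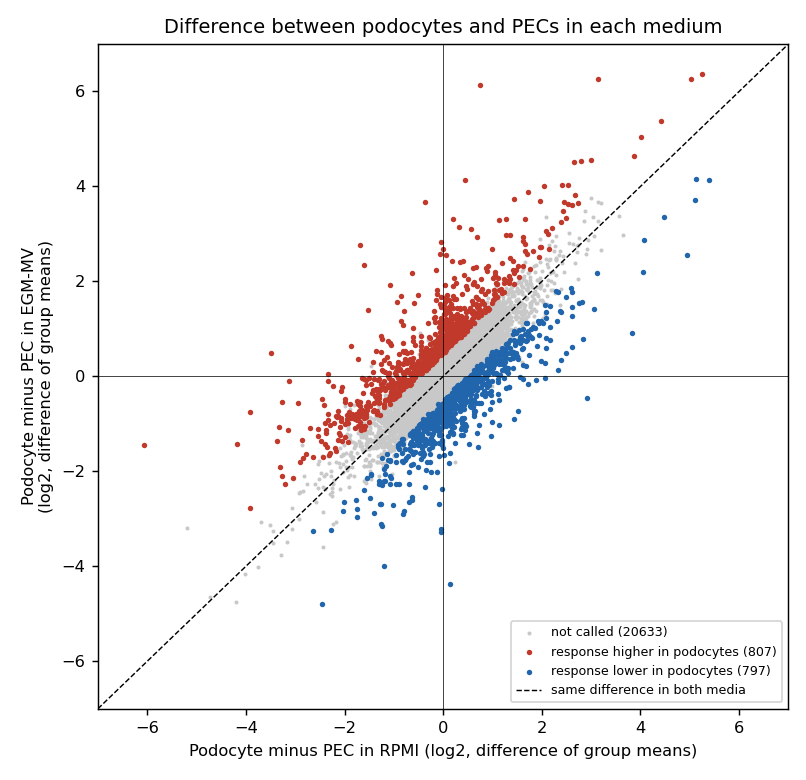
Difference between the mean levels of podocytes and PECs (podocyte minus PEC, log2) in RPMI (horizontal) and in EGM-MV (vertical) for each gene. Red and blue points are the 807 and 797 genes called with a higher or lower response in podocytes, grey points the others, and the dashed line marks an equal difference in both media. Called genes in the upper left and lower right are those in which the direction turned.

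Whether a gene could be called went with its level. Of the 13255 genes with a mean of at least 6 in some group, 1545 (11.7%) were called, and 59 called genes lay below that level in all groups. In 10 bins of equal size by mean level, 2 of 2224 genes were called in the dimmest bin (0.0899%), 13.7% in the seventh and 10.2% in the brightest. The median SE of the difference changed little over these bins, from 0.115 in the dimmest to 0.133 in the seventh, while the median size of the difference went from 0.07 to 0.23. Dim genes thus showed smaller differences on the log2 scale, with a similar error.

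Cell cycle genes, in 3 lists, could be followed by ID. They were taken from marker pairs that rank genes by phase in other mouse cells, and they separate genes high in G1, in S phase, when DNA is copied, and in G2/M, when cells prepare for and carry out division. Of the 56 measured G2/M genes, 21 (37.5%) had a called higher response in podocytes and 1 (1.79%) a called lower one, against 3.63% and 3.58% of all genes. The other 34 did not pass the test. The median difference was 0.42 over the list and 0.01 over all genes, and 43 of the 56 differences were above 0. The called higher differences ran from 0.49 to 1.52, and 11 of the 21 reached 2-fold.

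The median response of the G2/M genes lay above 0 in all 4 cultures and was larger in the podocyte cultures. It was 0.21 in PEC2, 0.12 in PEC3, 0.61 in Pod2 and 0.75 in Pod3. The response itself was called higher for 39 of the 56 members in podocytes and 16 in PECs, against 11.2% and 11.7% of all genes. It was called lower for 5 members in podocytes and 3 in PECs, against 8.54% and 7.49% of all genes. In RPMI their median level was 8.43 in PEC2, 8.39 in PEC3, 7.56 in Pod2 and 7.31 in Pod3. In EGM-MV it was 8.75 in PEC2, 8.51 in PEC3, 8.19 in Pod2 and 8.21 in Pod3. Podocyte arrays thus lay below PEC arrays in both media, and the median gap of the members went from −0.88 in RPMI to −0.46 in EGM-MV. Without Pod3 the count of called higher G2/M genes was 8 and without Pod2 it was 11.

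The S list had fewer called members. Of its 54 measured members, 10 (18.5%) had a called higher and 1 (1.85%) a called lower response in podocytes, with a median difference of 0.11. This median was 0.03 with arrays centred on their medians and 0.18 without PEC2. The called higher differences ran from 0.48 to 1.48. In the fit without pairing 5 S genes were called higher, and the count was 1 without Pod2 and 2 without Pod3. Of the 69 measured G1 genes, 1 (1.45%) was called higher and 3 (4.35%) lower. The count of lower calls was 0 without pairing and without Pod2, 1 without PEC3 and without Pod3, and 6 with an intensity trend. The G1 median difference was 0.06 and turned to −0.02 with arrays centred on their medians. The part of the share of dividing cells in these values, beside other differences, was not tested.

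**Figure D5:**
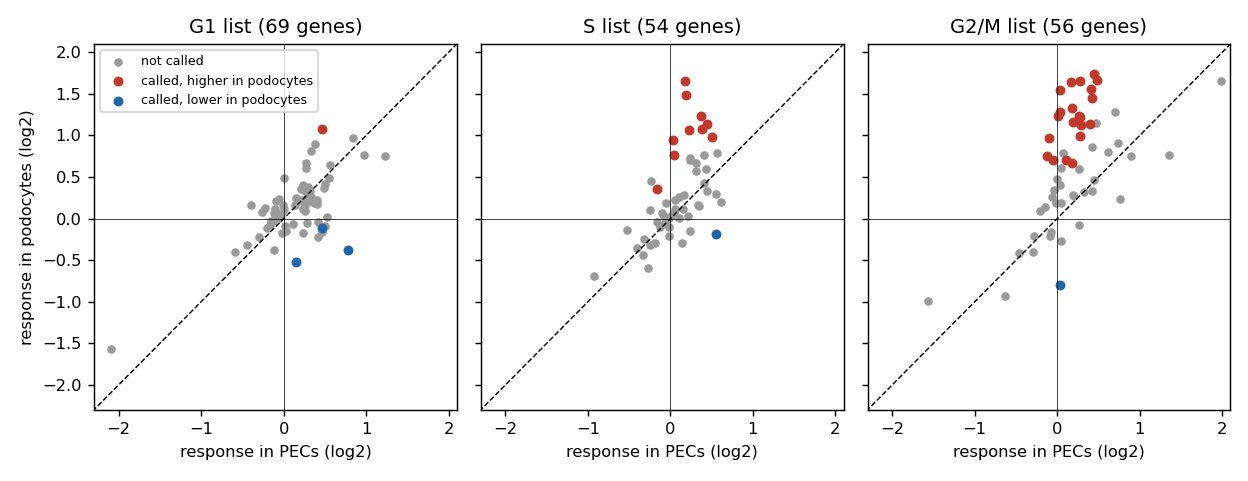
Response (EGM-MV minus RPMI, log2, mean of 2 cultures) in PECs (horizontal) and in podocytes (vertical) for the 69 G1, 54 S and 56 G2/M genes measured. Red points were called with a higher and blue points with a lower response in podocytes, grey points were not called, and the dashed line marks equal responses. In the G2/M panel 21 red points lie above the line.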

How the data were processed

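RNA was measured on 8 Affymetrix mouse gene arrays. The authors made the deposited log2 values in JMP Genomics: a custom chip definition gave 1 value per Ensembl gene, followed by RMA background correction, quantile normalization, log2 conversion and an outlier filter. Quantile normalization makes every change relative to the other genes. A second deposited table of log2 values held 22215 of the 22237 genes, and its values differed by 0 at most.

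Groups came from the sample labels. Culture numbers in the column names, with the methods' independent cultures kept in both media, paired the arrays. As a check, the deviations of the cultures in RPMI and EGM-MV correlated over genes at r = 0.53 in PECs and 0.07 in podocytes. Paired differences were fitted with limma 3.58.1 (lmFit, eBayes) in R 4.3.3, without a filter on level. The prior had 5.28 and the residuals 2 degrees of freedom. P-values were adjusted by the Benjamini-Hochberg method. Alternatives were no pairing, culture as a random block, other scalings, a level minimum of 6, an intensity trend, a robust prior, the methods' t-test, the second table, and each culture left out. The methods' t-test was here unmoderated and run on the 4 paired values. The study ran it on all arrays, after an analysis of variance, so the procedures differ. The code was tested on simulated data.

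Members and lists were chosen with earlier results of these data known. Since 0 IDs matched a symbol, the 29 symbol lists and the markers of the labelled cell types were not tested, and no sequences are shown. The 4 described genes are the 2 largest differences per direction that were called, reached a mean of 6 in some group and did not overlap between cell types. The planned requirement of a gene symbol could not be applied, and the planned number was reduced because the IDs carry no names. In place of symbol lists, 3 lists were made from the cell cycle pairs of scran 1.30.0. A gene had to stand in at least 10 pairs, come first in at least 90% of those of its own phase and in at most 50% of those with each other phase. This definition was chosen after a wider one had been seen. With 2 arrays per group, their number limits the precision.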

Additional observations from a re-analysis of the deposited data

Results flagged for a closer look

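All called genes passed the test of a difference between the cell types under the same change of medium, and some can be false calls. They numbered 1604, with 807 responses higher and 797 lower in podocytes. The 4 genes described in full were chosen among them by the size of the difference, under the level and overlap conditions. Their differences were 5.38 for ENSMUSG00000037625, 4.63 for ENSMUSG00000075602, −4.51 for ENSMUSG00000076928 and −3.35 for ENSMUSG00000032487. Among the cell cycle lists the test called a higher response in podocytes for 21 G2/M genes, 10 S genes and 1 G1 gene. No group held 4 or more arrays, so single arrays were not examined as outliers within a group.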

How the results depend on the processing

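Counts depended on the pairing and on which culture was left out. With 1 culture of a cell type left, the spread between cultures was taken from the other cell type alone. The median difference of the G2/M list lay between 0.37 and 0.49 with each culture left out, against 0.42 in the main fit. Without the replicate block, the fit of group means called 664 genes, all shared with the 1604: 329 higher, 335 lower, 389 in opposite directions, 422 larger in podocytes and 315 of at least 2-fold. In that fit 5 S genes and 0 G1 genes were called higher, and 2726 genes were called within PECs. After Benjamini-Hochberg adjustment the methods' t-test, run here on the 4 paired values with no preceding analysis of variance, called 0 genes in the comparison, in each direction, pattern and list and within PECs, and 2 within podocytes. Without adjustment 2888 genes had p below 0.05 in that test, 110 passed the methods' threshold, and limma's paired fit gave 4677. Leaving out each culture in turn gave 337 to 1610 called genes (332 of the 337 without Pod2 were among the 1604), with 220 to 803 higher, 117 to 807 lower, 178 to 907 opposite, 226 to 830 larger in podocytes and 329 to 569 of at least 2-fold. A cell type with 1 culture left is assumed to vary like the other. Calls within PECs were 2748 to 3284 and within podocytes 1270 to 5072, and higher calls were 0 to 2 for G1, 1 to 9 for S and 8 to 20 for G2/M genes. Without the block and without any single array, an alternative chosen after seeing the data, 149 to 650 genes were called (573 without the PEC2 array in EGM-MV and 549 without that in RPMI, and in the same order 650 and 631 for PEC3, 149 and 220 for Pod2, 165 and 254 for Pod3). Repeated quantile normalization called 1575, a random block 1234 and median centring 1689 (median of all genes −0.07). Of these 1445, 1114 and 1417 were among the 1604. Centring gave 620 higher and 1069 lower. The G1 list had 0 higher calls with the random block and with centring, and 2 without dim genes, with a trend and with a robust prior. Its median of 0.06 turned to −0.015 with centring and lay between −0.023 without PEC3 and 0.046 without Pod2, at −0.021 without Pod3. The S median of 0.11 was 0.03 with centring and 0.07 to 0.18 without a culture. A wider definition of the cycle lists had been seen before the narrower main one was chosen, and it was run as an unplanned alternative. It gave 8, 19 and 36 higher calls for G1, S and G2/M. The wider lists hold more genes, so these counts do not compare directly with those of the main lists. Their median differences were 0.05, 0.11 and 0.31 in the same order, against 0.06, 0.11 and 0.42 in the main lists. The differences of the 4 described genes ran from 5.22 to 5.53, 4.12 to 5.13, −5.25 to −3.77 and −3.93 to −2.78 over 13 alternatives, with limma adjusted p below the threshold in 12. The methods' t-test gave adjusted p-values of 0.258, 0.308, 0.341 and 0.348. The causes of these shifts were not tested beyond the removal of arrays. Signal close to background limits the dimmest genes.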
